A study of Homo sapiens with 6 samples.

Results

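Transcripts of 33 regulators and target genes of the tumour suppressor p53 were followed in the human gastric cancer line YCC3 after silencing of CTNNB1, the gene of beta-catenin. A gene was measured here where a row of the array table carried its symbol and no other, and the brightest such row over the 6 arrays was taken. That gave values for 31 of the 33 genes, among 18417 genes in all, and each of the 31 had 1 row. BTG2 and FDXR had no such row and were not analysed here. The groups were YCC3 cells given CTNNB1 siRNA (3 arrays) and YCC3 cells given non-targeting control siRNA from the same supplier (3 arrays), grown alike, with total RNA taken 48 hours after transfection. Both groups are thus 1 cell line at 1 time. The sources used here do not state the siRNA sequences or whether a pool was used. All values are log2 array signals, in which a difference of 1 is a doubling. Replicates are labelled biological, but nothing says that they were separate transfections, so p-values measure the spread between these arrays. In such bulk RNA a signal is a mean over all cells, and fewer cells expressing a gene cannot be told apart from less RNA in each.

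The p53 protein is a transcription factor that is held at a low level by constant degradation and accumulates when DNA damage, oncogene activity or ribosome stress shields it from its ubiquitin ligase, MDM2. It then binds paired copies of a short consensus sequence near its target genes and raises their transcription. Those targets halt the cell cycle, repair DNA, adjust metabolism or start cell death, and several of them, MDM2 among them, act back on p53 and end the response. Because p53 itself is controlled mainly as a protein, the mRNAs of its targets are the usual readout of its activity, although many of these genes are also driven by other stress pathways.

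The sequence that p53 reads could be found beside some of these genes. RefSeq promoter windows of build GRCh38.p14, from 250 bases before to 50 bases after each annotated start, were in hand for 28 of the 33 genes. GADD45A, PHLDA3, RRM2B, TNFRSF10B and TP53INP1 had none. The windows were searched on both strands for exact matches to the p53 consensus decamer, and for a full site, meaning a pair of decamers up to 13 bases apart with at most 2 mismatches in all. In each decamer of a full site, the C and the G at the ends of its 4 central bases had to match. A full site may contain an exact decamer, so the counts overlap. An exact decamer lay in a window of 6 of the 28 genes (21.4%) and of 8.06% of all 27305 genes with a window, and a full site in 4 of the 28 (14.3%) and in 3.62% of all genes. The sites are shown because they allow the values of the genes that carry one to be read beside those of the other members. In the following 30-base stretches, written 5′ to 3′ on the strand of the gene, capitals mark the decamers.
MDM2: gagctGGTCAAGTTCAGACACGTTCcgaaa
DDB2: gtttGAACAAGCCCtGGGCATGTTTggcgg
AEN: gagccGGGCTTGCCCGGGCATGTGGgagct
FDXR: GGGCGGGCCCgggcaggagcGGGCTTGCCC
SESN1: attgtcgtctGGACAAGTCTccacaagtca
RPS27L: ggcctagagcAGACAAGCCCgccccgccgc
PLK2: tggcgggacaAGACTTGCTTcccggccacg
The MDM2 stretch lies at chr12:68808918-68808947 on the plus strand, and its full site, with 2 mismatches, begins 94 or 101 bases before 2 neighbouring annotated starts. That of DDB2, at chr11:47214975-47215004 on the plus strand, holds the only full site of the set without a mismatch, which begins 5 bases after 1 of its starts. AEN has its full site at chr15:88621301-88621330 on the plus strand, 34 bases before the start, with 2 mismatches. FDXR has one at chr17:74872996-74873025 on the minus strand, 31 bases before the start, also with 2 mismatches. The exact decamers of SESN1 (chr6:109009018-109009047), RPS27L (chr15:63157517-63157546) and PLK2 (chr5:58460199-58460228), all on the minus strand, begin 49, 59 and 132 bases before a start. A match is a description of the letters and does not show that p53 binds there.

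The targeted transcript was measured ahead of the members. CTNNB1 stood at 11.80, 11.81 and 11.90 on the control arrays and at 10.94, 11.06 and 11.20 with CTNNB1 siRNA, so that signal was 41.4% lower (limma, adjusted p = 0.00267). Array medians over all rows ran from 5.88 to 5.95. The 8 epithelial and gastric markers were bright, with control means from 8.42 to 13.57, and 2 of them were called higher, TFF1 and CLDN4. The 5 leukocyte markers measured had control means from 2.58 to 5.50 and the 7 fibroblast and endothelial markers from 4.04 to 6.66. None of those 12 was called, and none had an unadjusted p under 0.05 in the limma fit.

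A single member was called. TP53INP1 rose with CTNNB1 siRNA, and the other 30 of the 31 genes measured did not pass the threshold, an adjusted p under 0.05 in a limma fit across all 18417 genes. The share called was therefore 3.23% among the members and 4.72% among all genes tested, where 2.07% were called higher and 2.65% lower. At an unadjusted p under 0.05 there were 9 members (29%), against 20.3% of all genes. Values of the CTNNB1 siRNA arrays lay wholly above or below those of the control arrays for 11 members, 6 higher and 5 lower, which is 35.5%, against 26% of all genes. Changes were positive in 16 members and negative in 15, with a median of 0.03 log2 units, and the median over all genes was 0.01. The median size of a change, whatever its sign, was 0.13 in both.

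The intervals limit how large an unseen change can be. In all 31 members the 95% confidence interval of the change stayed within 1 log2 unit of 0, so that neither a doubling nor a halving of the signal lay inside it for any of them; the same held for 98.6% of all genes. In 20 of 31 the interval stayed within 0.5 log2 units, against 73.4% of all genes. Only EDA2R and SPATA18 had a control mean below the array medians, where a change can be compressed by background. Of all 18417 genes 7204 lay there, so the shares of members and of all genes are not matched for brightness.

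**Figure D1:**
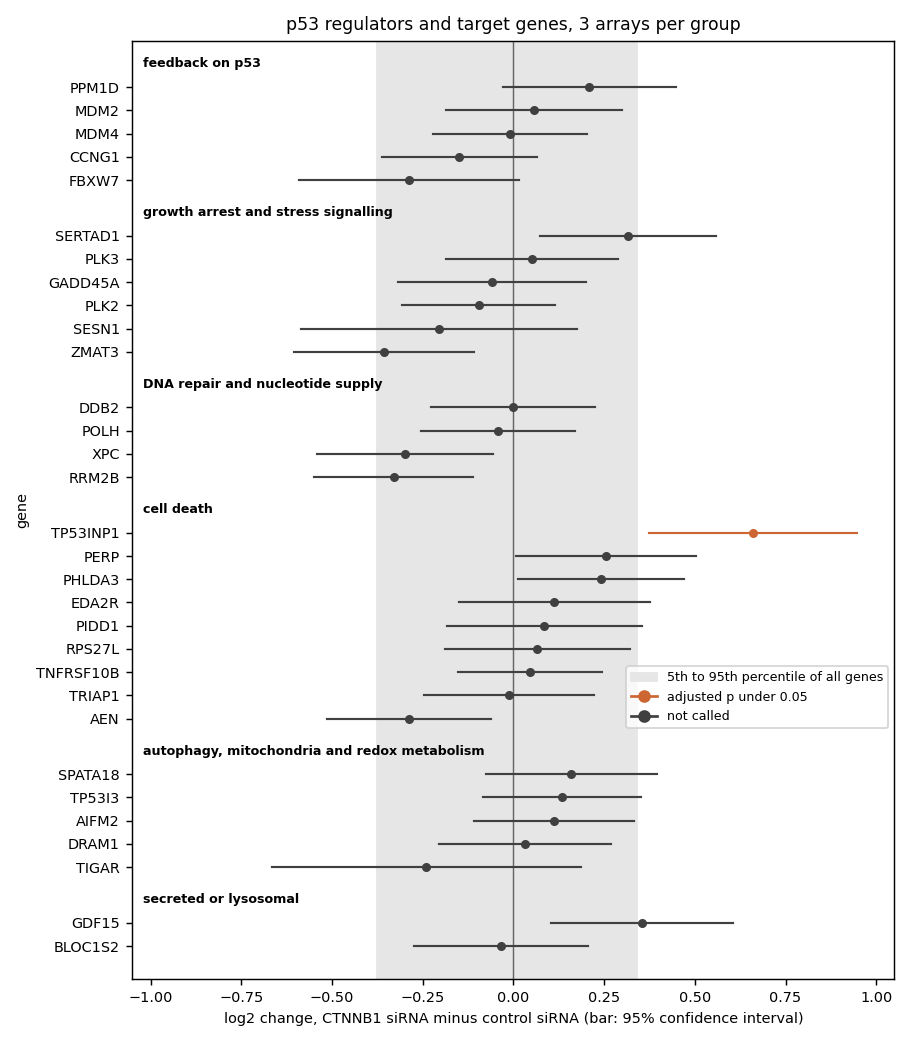
Log2 change of each of the 31 members (horizontal axis, CTNNB1 siRNA minus control siRNA), grouped by role, with its 95% confidence interval from 3 arrays per group; the grey band spans the 5th to the 95th percentile of all 18417 genes, from -0.38 to 0.34. TP53INP1, at 0.66, is the only member past the threshold, and 15 of the 31 points lie left of 0.

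Among the 5 regulators that act back on p53, none was called, and none had an unadjusted p under 0.05 in the limma fit. MDM2, the ubiquitin ligase that marks p53 for degradation and itself one of its best known targets, read 9.53, 9.50 and 9.73 on the control arrays and 9.72, 9.50 and 9.71 with CTNNB1 siRNA. The groups overlapped almost fully, and the fold change was 1.04 with a 95% interval of 0.878 to 1.23. MDM4, the relative of MDM2 that covers the activation domain of p53, had a log2 change of -0.01 ± 0.10 (SE). PPM1D, the phosphatase that switches the DNA damage signal off, was at 7.72, 7.55 and 7.88 in control cells and at 7.91, 7.96 and 7.90 with CTNNB1 siRNA. Each of the treated arrays was above each control array, by as little as 0.02 log2 units, and the change of 0.21 ± 0.11 (SE) had an adjusted p of 0.313. CCNG1, the cyclin that recruits a phosphatase to MDM2, measured -0.15 ± 0.10, and FBXW7, the substrate receptor of the ligase that degrades cyclin E and MYC, -0.29 ± 0.14 (adjusted p = 0.273).

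The 6 measured genes of growth arrest and stress signalling had changes in both directions and no call. There were 2 (33.3%) at an unadjusted p under 0.05 in the limma fit, against 20.3% of all genes. SERTAD1, a CDK4-binding co-regulator of transcription, gave 6.80, 7.04 and 6.94 with control siRNA and 7.17, 7.39 and 7.16 with CTNNB1 siRNA. The treated arrays were all higher, with a change of 0.32 ± 0.11 (SE) and an adjusted p of 0.134. ZMAT3, an RNA-binding zinc finger protein, gave 6.67, 6.79 and 6.76 and then 6.18, 6.51 and 6.46. Here every treated array was lower, and the change of -0.36 ± 0.11, the most negative of the 31, had an adjusted p of 0.101. The damage-inducible gene GADD45A did not separate the groups, with 8.80, 8.93 and 9.17 against 8.92, 8.81 and 8.99.

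Of the genes in this role with a decamer in the promoter window, SESN1, which restrains the growth kinase mTORC1, had 1 array that stood apart. It measured 6.91, 6.95 and 7.08 in control cells and 6.98, 6.32 and 7.02 in treated cells, where the low value is replicate 2. The change was -0.21 ± 0.17 (SE) with that array and 0.02 without it. PLK2 and PLK3 encode stress-responsive polo-like kinases. The PLK2 groups did not overlap, with a control mean of 7.41 ± 0.08 and a treated mean of 7.32 ± 0.06 (SD, n = 3 each), yet the nearest arrays, at 7.36 and 7.35, nearly touched and the change was -0.10 ± 0.09. PLK3 changed by 0.05 ± 0.11.

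All 4 genes of DNA repair and nucleotide supply had estimates below 0, though that of DDB2 was only -0.0017 and that of POLH -0.04. None of the 4 passed the threshold, and 2 (50%) had an unadjusted p under 0.05 in the limma fit, against 20.3% of all genes. RRM2B, the p53-inducible small subunit of ribonucleotide reductase, had control values of 7.28, 7.19 and 7.33 and treated values of 6.93, 6.84 and 7.04. The highest treated array lay below the lowest control array, with a signal 20.4% lower and an adjusted p of 0.0874, the smallest after TP53INP1. XPC, which recognises distorting lesions for nucleotide excision repair, measured 7.16, 6.95 and 7.25 and then 6.91, 6.73 and 6.81. These groups also did not overlap, but the gap was 0.04 log2 units, and the adjusted p was 0.153.

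The other repair genes barely differed. DDB2, which binds ultraviolet damage and carries the site without a mismatch, stood at 8.15, 8.08 and 8.22 with control siRNA and at 8.24, 8.20 and 8.01 with CTNNB1 siRNA. The estimate was 0.00 with a 95% interval from -0.23 to 0.22 log2 units. POLH, the polymerase that copies across ultraviolet lesions, changed by -0.04 ± 0.10 (SE).

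TP53INP1 belongs to the genes of cell death. It encodes a stress-induced nuclear protein that promotes apoptosis and autophagy and works with p53. Control arrays read 6.29, 6.16 and 6.49, and CTNNB1 siRNA arrays 7.03, 6.76 and 7.14. The lowest treated value was above the highest control value, and within both groups replicate 2 was the lowest. Means were 6.32 ± 0.17 and 6.98 ± 0.20 (SD, n = 3 each), a 1.58-fold rise with a 95% interval of 1.30 to 1.93 (limma, adjusted p = 0.0186). By p-value this was the 420th of 18417 genes. The call ended without control replicate 1 (adjusted p = 0.0832), control replicate 2 (0.0591) or CTNNB1 siRNA replicate 1 (0.0891), with changes between 0.58 and 0.77 over the 6 fits that leave out 1 array. It also ended in a fit over all 33297 rows of the table, where the adjusted p was 0.101 and 0.757% of rows were called.

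Receptors and scaffolds of cell death were close to their control values. TNFRSF10B, the death receptor DR5 for the ligand TRAIL, was the most tightly measured member, at 9.20, 9.18 and 9.22 against 9.23, 9.28 and 9.22. Its groups did not overlap, and the change was 0.05 ± 0.09 (SE), with an upper limit of 1.18-fold. EDA2R, a receptor of the same family, measured 0.11 ± 0.12, and PIDD1, the scaffold that activates caspase-2, 0.09 ± 0.12.

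Among the other effectors, PERP and PHLDA3 had positive and AEN had negative changes. PERP, a membrane protein of desmosomes and apoptosis, read 10.47, 10.37 and 10.63 and then 10.90, 10.62 and 10.73, with 1 treated array just below the highest control. Its change was 0.26 ± 0.11 (SE; adjusted p = 0.234). PHLDA3, which competes with the survival kinase AKT for membrane lipids, read 7.68, 7.71 and 7.47 and then 7.91, 7.89 and 7.79, without overlap (0.24 ± 0.10, adjusted p = 0.218). AEN, an apoptosis-enhancing nuclease with a full site before its start, went the other way.

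For AEN the control arrays gave 7.36, 7.51 and 7.62 and the treated arrays 7.25, 7.21 and 7.17, again without overlap. Signal was 18.1% lower, with an adjusted p of 0.142. TRIAP1, a small mitochondrial protein that opposes apoptosis, measured -0.01 ± 0.11 (SE). RPS27L, a p53-inducible relative of the ribosomal protein gene RPS27, measured 0.07 ± 0.11; since these genes are close copies, its probes may share signal with RPS27.

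**Figure D2:**
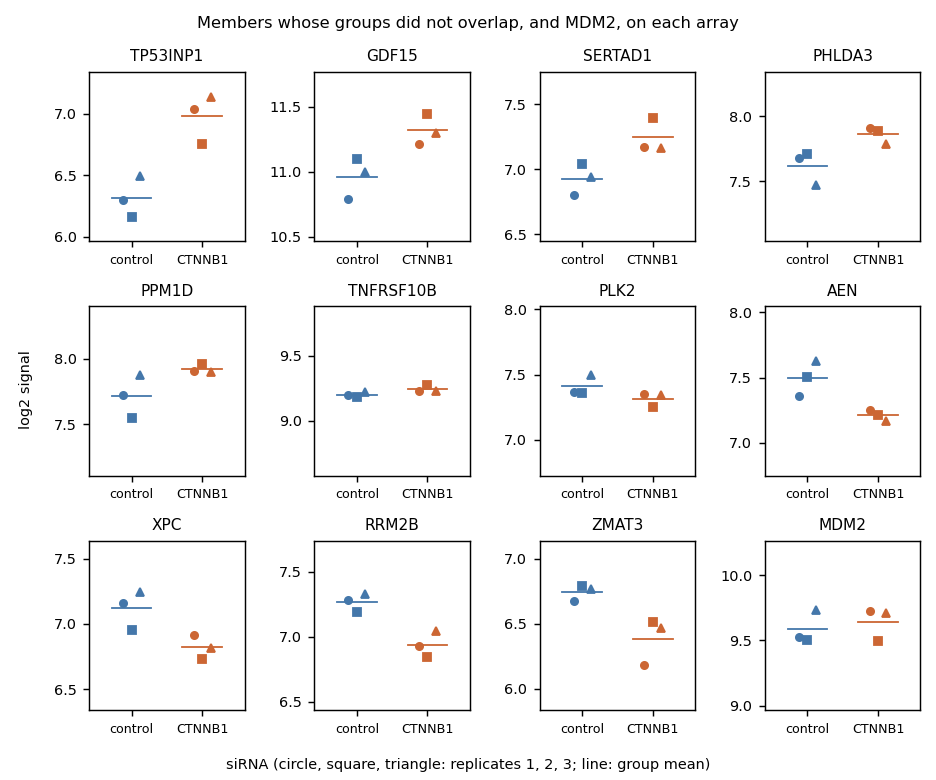
Log2 signal (vertical axis, each panel with its own range) on every array of the 11 members whose groups did not overlap and of MDM2; circles, squares and triangles are replicates 1, 2 and 3, blue for control siRNA and orange for CTNNB1 siRNA, and lines are group means. The means of TP53INP1 are 0.66 log2 units apart, those of the other 10 separated genes at most 0.36, and those of MDM2 0.06.

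Genes of autophagy, mitochondria and redox metabolism gave no call among 5 measured, none at an unadjusted p under 0.05 in the limma fit, and their groups all overlapped. Positive changes were measured in 4 of them: SPATA18, which acts in mitochondrial quality control, 0.16 ± 0.11 (SE), the quinone oxidoreductase TP53I3 0.13 ± 0.10, the ferroptosis suppressor AIFM2 0.11 ± 0.10, and DRAM1, a lysosomal protein of autophagy, 0.03 ± 0.11. TIGAR, which lowers glycolytic flux, was the least precise member, at 6.29, 5.56 and 6.20 against 5.84, 5.50 and 5.99. Replicate 2 was the lowest array in both groups, and the change of -0.24 ± 0.19 became -0.47 without control replicate 2 and -0.10 without CTNNB1 siRNA replicate 2. GDF15, the secreted stress cytokine and the brightest member, went from 10.79, 11.10 and 11.00 to 11.22, 11.44 and 11.30. All treated arrays exceeded all control arrays, a change of 0.35 ± 0.11 with an adjusted p of 0.106. BLOC1S2, a subunit of a complex that shapes lysosome-related organelles, measured -0.04 ± 0.11.

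Read by promoter, none of the 6 measured genes printed above with a site was called, and their changes ran from -0.29 for AEN to 0.07 for RPS27L. TP53INP1, the only member called, had no promoter window and so could not be among them. Sites outside the windows were not searched, so a member without a printed site may still have one elsewhere. The member count moved with the filter on dim genes and with the variance model. With a trended and robust variance GDF15 was called higher beside TP53INP1 (adjusted p = 0.0253), which made 6.45% of members, against 8.81% of all genes. With the dimmest 25% of genes left out RRM2B was called lower beside TP53INP1 (0.0485), which made 6.67% of the 30 members left, against 10.7% of all genes kept. With the dimmest 50% left out, 25 members were left and 7 were called (28%, against 20.2% of all genes kept): TP53INP1, GDF15 and SERTAD1 higher, and RRM2B, ZMAT3, XPC and AEN lower. That filter cut at a mean of 6.56 over the 6 arrays, and TP53INP1 and ZMAT3 each had 1 group mean below it, so they passed through the group in which they were higher and the 28% is given as a description only.

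Other targets of p53, from another list of 38 genes of which 36 were measured, held 4 rises and 1 fall. That list was chosen with earlier results of these data known, so its shares are a description only. The share called was 13.9%, against 4.72% of all genes. These shares are not matched for brightness: 8 of the 36 had a control mean below the array medians, against 7204 of all 18417 genes. At an unadjusted p under 0.05 in the limma fit there were 19 (52.8%), against 20.3% of all genes. The groups did not overlap for 21 (58.3%), against 26% of all genes. The median change of this list was 0.24, and 27 of 36 changes were positive, against 51.2% of all genes. CDKN1A, whose product p21 blocks cyclin-dependent kinases and is the main arrest effector of p53, had a control mean of 7.40 ± 0.12 and a treated mean of 7.99 ± 0.06 (SD, n = 3 each). The lowest treated array, at 7.93, was above the highest control array, at 7.48, and signal rose 1.51-fold (limma, adjusted p = 0.0102). SFN, the epithelial 14-3-3 sigma that holds cells in G2, measured 9.78, 9.95 and 9.98 and then 10.53, 10.51 and 10.32, a rise of 1.47-fold (limma, adjusted p = 0.0171). KITLG, the ligand of the receptor KIT, was the only fall, from a control mean of 7.62 to 7.06 with CTNNB1 siRNA (limma, adjusted p = 0.0228). TRIM22, an antiviral ubiquitin ligase that interferon also induces, rose by 2.46 ± 0.17 (SE) log2 units (limma, adjusted p = 2.50e-05). Its control arrays, at 4.86, 4.36 and 4.27, lay below the array medians, so this change is left without a fold. TRAF4, an adaptor protein chosen after its values were seen, rose 1.32-fold (adjusted p = 0.0454).

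The death genes of that list named here, also picked out after their values were seen, were not called. BAX, which permeabilises mitochondria, changed by 0.01 ± 0.11 (SE), its activator BBC3 by 0.22 ± 0.13 and PMAIP1 by 0.26 ± 0.12. The death receptor FAS, dim at 4.40, changed by -0.04 ± 0.11, TNFRSF10A by -0.07 ± 0.09 and TNFRSF10D by -0.12 ± 0.09. APAF1 measured 0.39 ± 0.11 (limma, adjusted p = 0.0728) and CASP1, dim at 3.88, 0.56 ± 0.16 (0.0740). All treated arrays exceeded all control arrays for PMAIP1, APAF1 and CASP1. Apart from TRIM22, which passed in all 6 fits that leave out 1 array, the called genes of this list lost their calls in some of those fits. Over all genes the share called ran from 1.54% to 4.76% in them, against 4.72% with every array. Changes in them ran from 0.53 to 0.63 for CDKN1A and from 0.37 to 0.45 for TRAF4. The call of CDKN1A ended when CTNNB1 siRNA replicate 1 was left out (adjusted p = 0.0532), with its change at 0.59. Those of the others ended as follows: SFN without control replicate 1 (0.0945) or without CTNNB1 siRNA replicate 1 (0.0821) or 2 (0.0600), KITLG without control replicate 1 (0.111) or 3 (0.0859) or without CTNNB1 siRNA replicate 1 (0.0967) or 2 (0.0755), and TRAF4 in each such fit except that without CTNNB1 siRNA replicate 3, up to an adjusted p of 0.164.

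Upstream of p53 the changes called were all falls. Of 23 measured genes of the p53 family, its kinases and its cofactors, 4 fell, none rose and 19 did not pass. This list too was chosen with earlier results of these data known. The share called was 17.4%, against 4.72% of all genes. These shares are not matched for brightness: none of the 23 had a control mean below the array medians, where 7204 of all 18417 genes lay. In a fit without the dimmest 50% of genes, 20.2% of all genes kept were called. At an unadjusted p under 0.05 in the limma fit there were 9 (39.1%), against 20.3% of all genes. The groups did not overlap for 10 (43.5%), against 26% of all genes. PRKDC, the catalytic subunit of DNA-dependent protein kinase, read 10.42, 10.13 and 10.27 with control siRNA and 9.51, 9.49 and 9.66 with CTNNB1 siRNA, a signal lower by 39.2% (limma, adjusted p = 0.00542). ATM, the kinase that answers double-strand breaks and phosphorylates p53 and MDM2, went from 6.35, 6.32 and 6.35 to 5.66, 5.59 and 5.92 (-0.62 ± 0.11 SE, adjusted p = 0.0125). ATR, its counterpart for stalled replication, went from 7.59, 7.43 and 7.61 to 6.80, 6.87 and 7.12 (-0.61 ± 0.11, adjusted p = 0.0146). The groups did not overlap for any of the 3 kinases, and for PRKDC and ATM the gap between them was wider than the spread within either.

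USP7, the protease that removes ubiquitin from both MDM2 and p53, also fell, from 9.84, 9.68 and 9.72 to 9.12, 9.14 and 9.32 (limma, adjusted p = 0.0140). The checkpoint kinases that ATR and ATM activate, named after their values were seen, were not called: CHEK1 measured -0.06 ± 0.10 (SE) and CHEK2 -0.20 ± 0.11. PRKDC passed with any 1 array left out. The call of ATM ended without control replicate 1 (adjusted p = 0.0621) or CTNNB1 siRNA replicate 1 (0.0668), that of USP7 without control replicate 1 (0.0809) or CTNNB1 siRNA replicate 1 (0.0691), and that of ATR without control replicate 1 (0.0735) or 3 (0.0611) or CTNNB1 siRNA replicate 1 (0.0730) or 2 (0.0525). In the fit over all 33297 rows PRKDC and TRIM22 kept their calls, while ATM, ATR, USP7, CDKN1A, SFN, KITLG and TRAF4 had adjusted p from 0.0602 to 0.128.

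**Figure D3:**
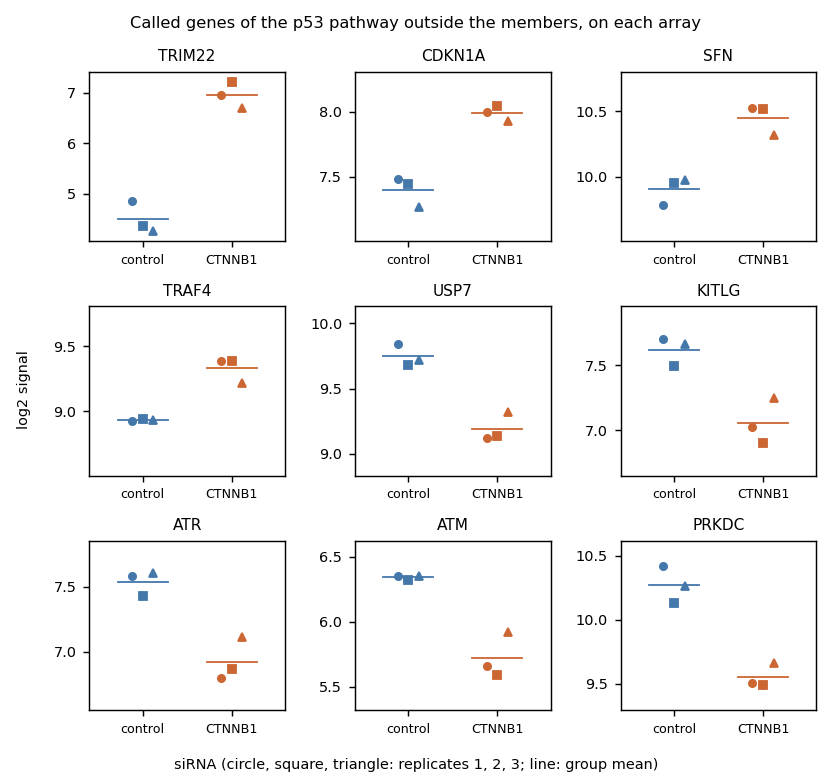
Log2 signal on every array (vertical axis, each panel with its own range) of the 9 called genes of the p53 pathway outside the members, in order of change; symbols and colours mark replicates and siRNA as labelled, and lines are group means. TRIM22, CDKN1A, SFN and TRAF4 sit higher on all 3 CTNNB1 siRNA arrays, and USP7, KITLG, ATR, ATM and PRKDC lower.

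Other groups give context to these values. Of 10 cell cycle genes that p53 lowers through p21 and the DREAM repressor complex, none was called or had an unadjusted p under 0.05 in the limma fit. The groups did not overlap for 3 of them (30%), all lower, against 26% of all genes. Changes of the 10 lay between -0.19 and 0.10. None of 10 genes of the ATF4 stress response, some of whose inducers also act on GDF15 and TNFRSF10B, was called either. In the limma fit 4 of them (40%) had an unadjusted p under 0.05, against 20.3% of all genes. Their groups did not overlap for 5 (50%), against 26% of all genes, and their changes lay between -0.40 and 0.43. Interferon-stimulated genes moved on the same arrays: all 9 measured were called higher, with a median change of 2.69 log2 units. The smallest p-values among them were those of IFIT1 (4.27), XAF1 (3.16), MX1 (2.69) and IFIT3 (2.72), the log2 change of each in parentheses. Their part in the rise of TP53INP1 or of the other called targets was not tested.

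**Figure D4:**
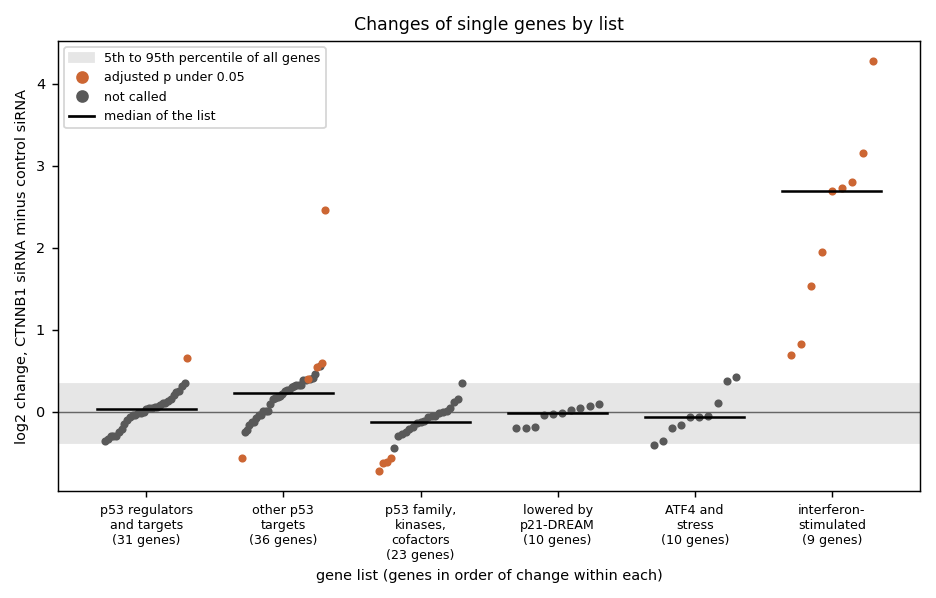
Log2 change of single genes (vertical axis) in the members and 5 other lists, in order of change within each list; orange points are called, black lines are list medians and the grey band spans the 5th to the 95th percentile of all genes. The medians are 0.03 for the members, 0.24 for other p53 targets, -0.13 for the p53 family with its kinases and cofactors, -0.02 for genes lowered through p21, -0.06 for ATF4 and stress genes, and 2.69 for interferon-stimulated genes.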

How the data were processed

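Human Gene 1.0 ST arrays were summarised by the authors with RMA in Affymetrix Expression Console 1.1, per the submitters' processing notes, and deposited on the log2 scale. RMA brings arrays to a common distribution and so hides any change that most genes share. Scanner intensities were not used here, so calls above background are unknown, and the number of arrays limits the precision. The genome build of the array annotation is not given in the sources used here. Of 33297 rows, 19460 had 1 gene symbol, 1754 several and 12083 none; 19429 of the first had a gene ID in the RefSeq table and no symbol was updated. No row with several symbols named a member.

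The test was limma 3.58.1 (R 4.3.3), two-sided, by lmFit and eBayes without a replicate block, with Benjamini-Hochberg adjustment over 18417 genes. "Called", "rose" and "fell" mean an adjusted p under 0.05. Errors are the SE of this fit, or SD where named. In simulated data for this comparison, 200 of 18417 genes were changed and the noise was normal and independent between genes. The fit recovered 40.3% of changes of 0.5 log2 units and 97% of changes of 1, and 4.82% of calls were false. On the real arrays 870 genes were called, so these shares describe the simulated setting and need not carry over.

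The members and the 8 lists set beside them were chosen with earlier results of these data known. All members are named, with CTNNB1, CDKN1A and the called genes of each list, at most the 4 with the smallest p. Other settings were a replicate block, other scalings, filters on dim genes, variance models, array weights, the mean of all rows, every row, a threshold of 0.10, and each array left out.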

Additional observations from a re-analysis of the deposited data

How the results depend on the processing

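Over 16 settings, 41 genes gave 647 values beside those reported, of which 579 kept their direction and their side of the threshold. TP53INP1 was the 1 member called higher as reported. The count of members higher was 3 without the dimmest 50% of genes, 2 with a trended robust variance and 0 in the fit over every row, and ran from 0 to 1 with 1 array left out. The count lower, 0 as reported, was 1 at a threshold of 0.10 or without the dimmest 25%, 4 without the dimmest 50%, and 0 in every fit that leaves out 1 array. Over all genes, 382 higher and 488 lower became 660 and 1008 at a threshold of 0.10, 645 and 1216 without the dimmest 50%, 586 and 1036 with a trended robust variance, and 927 lower without the dimmest 25%. With 1 array left out they ran from 183 to 364 higher and from 95 to 513 lower. Rises made up 43.9% of calls as reported, 50.6% after a second quantile normalization and 56.3% after cyclic loess. They made up 34.7% without the dimmest 50%, 37.5% without the dimmest 25% and 36.1% with a trended robust variance. The share was 67% when control array 1 was left out and 66.7% when control array 3 was. It was 64.7% when CTNNB1 siRNA array 1 was left out and 62.2% when array 2 of that group was.

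There were 11 members that changed sign in some setting, and none of them was called in any. SESN1 did so only without CTNNB1 siRNA replicate 2. After a second quantile normalization MDM4 was 0.0352, DDB2 0.0571, TRIAP1 0.0327 and BLOC1S2 0.0134. After cyclic loess MDM4 was 0.0468, GADD45A 0.0139, DDB2 0.0598, TRIAP1 0.0561 and BLOC1S2 0.0316. With array weights GADD45A was 0.0066 and DDB2 0.0112. With 1 array left out the ranges were -0.0436 to 0.0299 for MDM4, -0.14 to 0.0433 for GADD45A, -0.33 to 0.0224 for SESN1, -0.0341 to 0.0969 for PLK3, -0.0455 to 0.066 for DDB2, -0.0765 to 0.0072 for POLH, -0.0289 to 0.17 for PIDD1, -0.0904 to 0.0319 for TRIAP1, -0.0111 to 0.15 for RPS27L, -0.0358 to 0.0994 for DRAM1 and -0.0896 to 0.0499 for BLOC1S2. The causes were not tested.

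Deviations of same-numbered arrays correlated at -0.019, 0.329 and 0.223 for numbers 1, 2 and 3, and control 2 with CTNNB1 siRNA 3, and control 3 with CTNNB1 siRNA 2, at -0.293 and -0.272. Arrays numbered 2 and 3 thus correlated best with their own number and those numbered 1 did not, so the numbers were not taken as pairs. With the replicate block 470 genes were higher and 707 lower, and TP53INP1 (adjusted p = 0.00855) was the only member called.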

Other observations

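ATM, ATR and PRKDC belong to 1 family of very large kinases, so its other members and their assembly factors were looked up after those falls had been seen. MTOR, the growth kinase, read 8.33, 8.11 and 8.29 with control siRNA and 7.76, 7.70 and 7.72 with CTNNB1 siRNA, a change of -0.52 ± 0.10 (SE). It was called lower, and its groups did not overlap. SMG1, the kinase of nonsense-mediated mRNA decay, measured -0.23 ± 0.11 and was not called. TRRAP, the scaffold relative without kinase activity, measured -0.30 ± 0.10 and was not called either, though its groups did not overlap. The assembly factors TELO2 (0.10 ± 0.13), TTI1 (-0.04 ± 0.11) and TTI2 (-0.05 ± 0.11) were not called. Of these 6 genes 1 was called (16.7%), against 4.72% of all genes, and the groups did not overlap for 2 (33.3%), against 26%. This set was chosen on the data and has no test of its own.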
